A study of Mus musculus with 4 samples.

Results

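Of 8 genes of iron uptake, storage and export (Tfrc, Fth1, Ftl1, Slc11a1, Slc40a1, Aco1, Ireb2 and Hfe), 6 had values on the arrays. In the whole series 7577 genes had a probe set of their own, which Ftl1 did not. Members were all probe sets with values that the platform annotation assigns to these genes, 11 in all, of which 3 are the platform's control probe sets for the Tfrc transcript. The 8 genes were chosen on signals of these arrays, with results of the knockout against wild-type comparison known, so their signals and differences in that comparison are given as a description and no p-value is attached to them. The only Ireb2 probe set was blank on all 4 arrays, and the annotation assigns no probe set to Slc40a1. Both genes were therefore not analysed here. The ferritin light chain probe set is assigned to Ftl1 together with the pseudogene Ftl1-ps2 and reads them as 1 signal.

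Iron enters macrophages in part as transferrin-bound iron, which the transferrin receptor (Tfrc) carries into endosomes, and in larger part from engulfed red cells, whose haem is broken down inside the cell. Iron that is not used is stored in ferritin, a shell of heavy (Fth1) and light (Ftl1) chains, or leaves through the exporter ferroportin (Slc40a1). Iron regulatory proteins (Aco1 and Ireb2) tie these steps together: in iron-poor cells they bind iron-responsive elements, hairpins in the RNA, which stabilises the Tfrc transcript and blocks translation of ferritin. Control of ferritin through these elements acts on translation, and an array of RNA does not read it.

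Thioglycollate-elicited peritoneal macrophages of mice whose strain background mixes 129/SV with C57BL/6 were compared by Pparg genotype, with 2 arrays labelled PPARg WT and 2 labelled PPARg KO. All mice had received 2.5 ml of thioglycollate at 3% and were lavaged after 3 days, and all cells then spent 24 h in medium with 0.5% serum without a ligand or stimulus. The labels describe neither the deleted part of Pparg nor a promoter that drives the deletion, and they give no age and no iron treatment. Nothing in them states that the arrays of 1 genotype are separate animals or cultures, and both replicate 2 arrays have the suffix dup in their description, so the spread between arrays may be technical. The Pparg probe set read 61.1 and 73.1 in WT and 43 and 40.6 in KO, below the median antisense control on all 4 arrays, and may lie outside the deleted part.

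Values are signals in intensity units, a relative scale that does not compare transcript amounts between genes. Differences are log2(signal + 16) in KO minus that in WT, with the standard error (SE) of a limma fit across 6389 probe sets, and folds are taken on the same scale. The spread behind each SE was pooled over probe sets of like brightness. Antisense controls, probe sets against the non-coding strand, had medians between 103.8 and 116 on the 4 arrays and mark the level below which a signal is only a bound. The median signal of an array ran from 136.7 to 142. Macrophage markers were present: all 8 of those listed (Adgre1, Cd68, Csf1r, Itgam, Lyz2, Cd14, Mertk and Msr1) were measured and none lay below the antisense median on all arrays. Of these, 1 passed the fit, Mertk, a receptor for dying cells, which fell from 225.6 and 233.4 in WT to 134.7 and 150.5 in KO (limma, adjusted p = 1.37e-06, and 0.780 without moderation, the 1 of 15 alternatives in which it did not pass).

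Tfrc, the receptor for transferrin-bound iron, was higher on both KO arrays than on both WT arrays at all 5 of its probe sets. Probe set 103957_at read 176.1 and 176.9 in WT and 212.6 and 268.2 in KO. The WT arrays lay within 1 unit of each other, and the KO arrays stood apart from each other by more than KO replicate 1 stood above WT. The difference was 0.41 (SE 0.11), a fold of 1.32. Probe set 103958_g_at read 822 and 685.1 in WT and 990 and 1009.3 in KO, a difference of 0.41 (SE 0.15). Here the spread sat between the WT arrays and the KO arrays nearly coincided.

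The 3 control probe sets of Tfrc cover the 5′ end, the middle and the 3′ end of the transcript. The 3′ control read 310.2 and 320.2 in WT and 404.7 and 453.4 in KO, a difference of 0.42 (SE 0.13). At the 5′ control the signals were 97.1 and 106 in WT, below the antisense median, and 124.8 and 129.3 in KO. The KO level is given as at least 1.14-fold higher against that median. All signals of this control were below the highest antisense control of their array (150.1 and 143.7 for the KO arrays). The bound therefore holds only if the KO signals are above background, which the controls do not settle. The middle control read 102.4 and 123.3 in WT and 128.3 and 147.3 in KO. Its WT replicate 1 signal was below the antisense median of that array, so its difference of 0.26 (SE 0.11) rests in part on a bound. Of the signals of the middle control, only that of 147.3 in KO exceeded the highest antisense control of its array. The 3′ to 5′ signal ratio, a measure that moves with RNA length and labelling, ran from 1.07 to 1.18 over the arrays for the Gapdh controls and from 1.44 to 1.54 for those of beta-actin, with overlapping genotypes at both. For the pyruvate carboxylase controls the ratio was 0.97 and 0.90 in WT and 0.86 and 0.84 in KO, without overlap. The part of RNA length or labelling in the Tfrc differences was not tested. The ratio is not given for Tfrc, whose 5′ signals in WT are only a bound. All 5 Tfrc probe sets read the same RNA samples, so they are not 5 replicates of the difference.

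**Figure D1:**
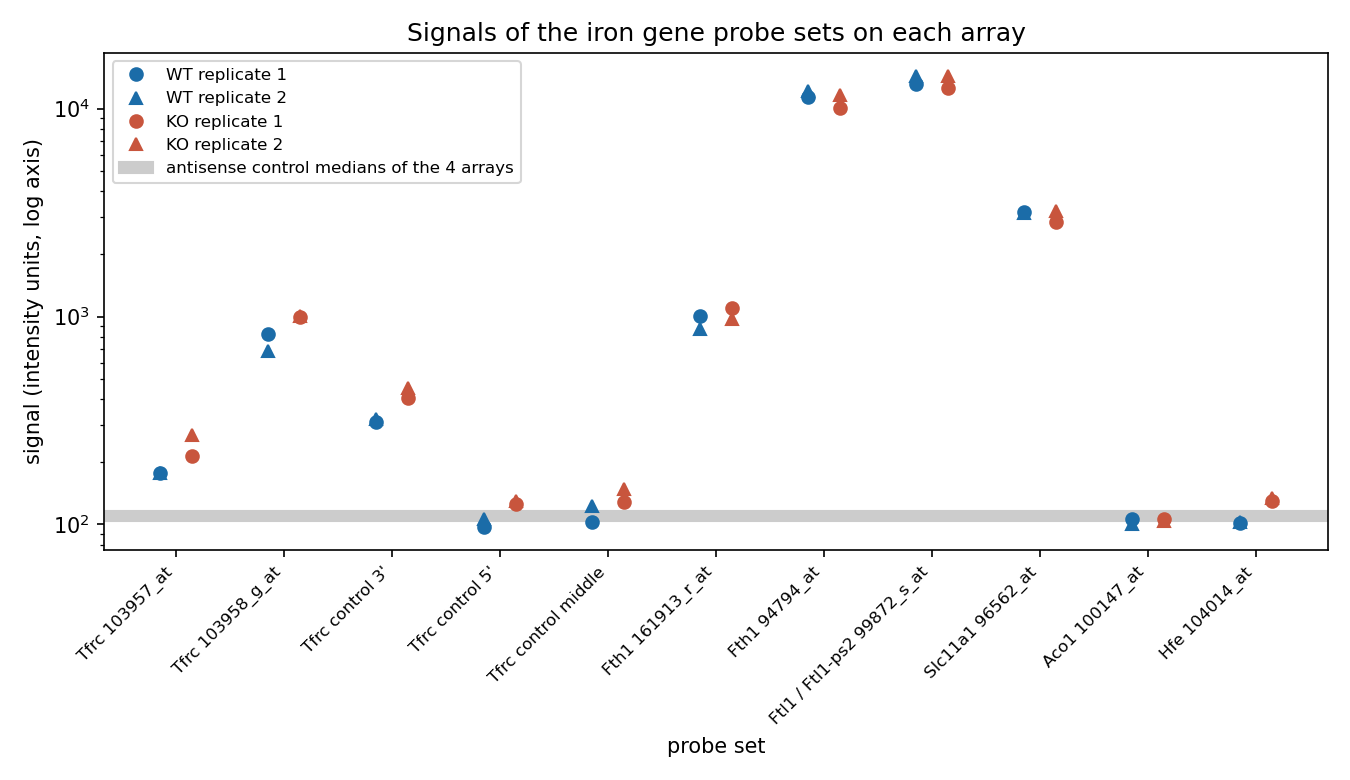
Signal (log axis, intensity units) of each of the 11 probe sets on the 4 arrays, WT in blue and KO in red, with circles for replicate 1 and triangles for replicate 2; the grey band spans the antisense control medians of the arrays (103.8 to 116). Both KO points lie above both WT points at the 5 Tfrc probe sets and at Hfe, and the genotypes overlap at the other 5.

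The 300 bases around 1 of the 2 annotated Tfrc starts (chr16:32608646-32608945, plus strand, GRCm38.p6, from RefSeq) are shown because Tfrc is the member that was higher on both KO arrays at every one of several probe sets. Capitals mark the core letters of a hypoxia response element, ACGTG, which begin 2 bases before the start.
Tfrc: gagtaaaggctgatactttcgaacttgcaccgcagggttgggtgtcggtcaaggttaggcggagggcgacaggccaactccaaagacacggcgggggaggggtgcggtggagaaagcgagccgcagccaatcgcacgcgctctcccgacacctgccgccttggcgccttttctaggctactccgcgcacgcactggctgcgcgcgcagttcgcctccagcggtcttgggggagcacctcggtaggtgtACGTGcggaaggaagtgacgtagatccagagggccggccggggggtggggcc

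Hfe encodes a class I-like membrane protein that binds the transferrin receptor and takes part in iron sensing. Its probe set read 102 and 102.9 in WT and 130 and 134.4 in KO. The 2 arrays of each genotype lay close together and the genotypes did not overlap. Both WT signals were below the antisense median of their array, so the KO level is given as at least 1.18-fold higher against that median. All 4 signals were below the highest antisense control of their array. The bound therefore holds only if the KO signals are above background, which the controls do not settle. The difference was 0.32 (SE 0.11) with the pseudocount of 16, 0.36 with 1 and 0.24 with 64, a spread that shows how far its size rests on the added constant.

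The window around the annotated Hfe start (chr13:23710805-23711104, minus strand, GRCm38.p6, from RefSeq) is shown because Hfe is the other member with non-overlapping genotypes. Capitals mark a match to the antioxidant response core TGACNNNGC, 67 bases before the start.
Hfe: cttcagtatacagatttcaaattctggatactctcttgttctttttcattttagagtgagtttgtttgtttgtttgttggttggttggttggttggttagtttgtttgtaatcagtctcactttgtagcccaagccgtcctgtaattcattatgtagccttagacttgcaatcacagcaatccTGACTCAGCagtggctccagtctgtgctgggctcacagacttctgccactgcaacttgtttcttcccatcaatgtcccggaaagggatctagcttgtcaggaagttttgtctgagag

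Promoter windows of 300 bases (250 before to 50 after a start) were at hand for 7 of the 8 genes, 9 windows in all. The Tfrc site is a single one, which falls in both overlapping Tfrc windows, and no other member window held ACGTG on either strand, against 19.6% of 32851 windows of all genes. TGACNNNGC was found in the Hfe window alone among the members and in 12.4% of all windows. The direct repeat that PPARγ binds with its partner RXR, searched as AGGTCANAGGTCA on both strands, was in no member window and in 0.0396% of all windows. The exact repeat is so rare in all windows that its absence from 9 cannot tell whether a member has a PPARγ site. The loop letters of the iron-responsive element, CAGTGN on the transcribed strand, were in the first 50 transcribed bases of no member window and of 7.08% of all windows. Such matches are letters in a window and not shown binding sites. The loop search covered only those 50 bases, and Slc40a1 had no window. It therefore cannot tell whether the rest of a member transcript holds an iron-responsive element.

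Ferritin transcripts differed little between the genotypes. Fth1, the heavy chain with the ferroxidase activity, had 2 probe sets that pointed in opposite directions. Probe set 94794_at, among the brightest of the array, read 11343.9 and 12137 in WT and 10121.5 and 11573.1 in KO, a difference of -0.12 (SE 0.13, 95% interval -0.37 to 0.14). Probe set 161913_r_at read 1011.6 and 874.6 in WT and 1103.6 and 970.3 in KO, a difference of 0.14 (SE 0.16, 95% interval -0.17 to 0.44). The genotypes overlapped at both. The probe set shared by Ftl1, the light chain that aids mineral formation in the shell, and Ftl1-ps2 read 13205.5 and 14330.9 in WT and 12577.3 and 14427.2 in KO. Its lowest and highest arrays were both KO, with a difference of -0.03 (SE 0.13, 95% interval -0.28 to 0.22). Of these 3 intervals only that of 161913_r_at reaches the Tfrc difference of 0.41.

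Slc11a1, also known as Nramp1, is the metal transporter of the phagosome membrane and pumps iron and manganese away from engulfed microbes. It read 3176.2 and 3134.1 in WT and 2852.4 and 3201.8 in KO. The KO arrays lay on either side of the WT pair, with a difference of -0.06 (SE 0.15, 95% interval -0.36 to 0.24). Aco1, which encodes iron regulatory protein 1, a cytosolic aconitase when it carries its iron-sulfur cluster, read 105.7 and 100.2 in WT and 106.4 and 103.8 in KO. Of these 4 signals 1 exceeded the antisense median of its array, so the probe set gives an upper bound and no comparison.

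**Figure D2:**
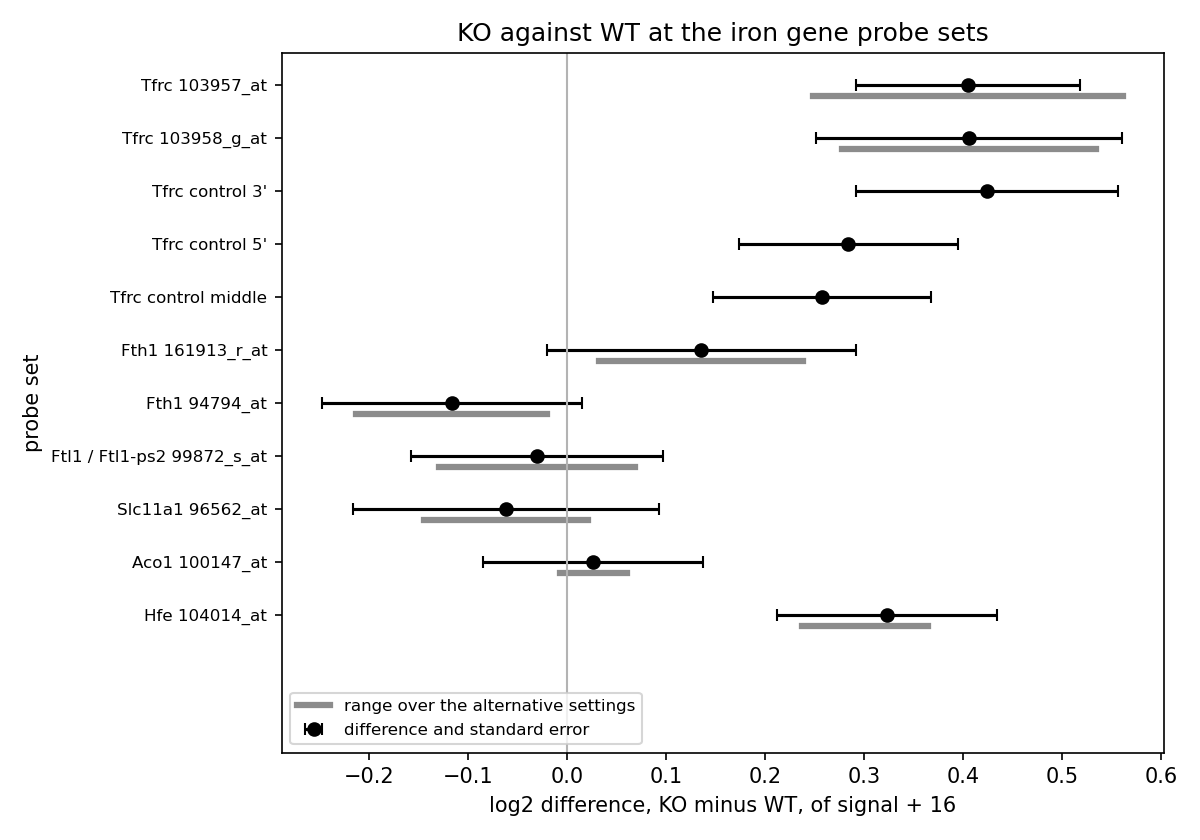
Log2 difference, KO minus WT, of signal + 16 at the 11 probe sets (points, bars of 1 SE), with the range over 14 alternative settings in grey where these were run. The ranges of both Tfrc probe sets and Hfe lie above 0, the 2 Fth1 probe sets lie on opposite sides of 0, and the Ftl1, Slc11a1 and Aco1 ranges cross it.

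Of the 8 member probe sets outside the platform controls, 7 passed the filter on dim signals and Aco1 did not. Of the 7, 1 (Tfrc 103957_at) passed an adjusted p of 0.05, a threshold that 3.55% of all 6389 tested probe sets passed, 1.02% as higher and 2.54% as lower in KO. The genotypes did not overlap at 3 of the 7, each with both KO arrays higher, against 32.4% of all tested probe sets without overlap and 11.3% with both KO arrays higher. Since the genes were picked with this comparison known, nothing is read from these counts. The Tfrc 103957_at call held in 10 of 14 alternative settings. It was lost without moderation and on leaving out WT replicate 1, WT replicate 2 or KO replicate 2. Over 14 alternative settings the difference ran from 0.25 (without KO replicate 2) to 0.56 (without KO replicate 1) at Tfrc 103957_at and from 0.28 (without WT replicate 2) to 0.53 (without WT replicate 1) at 103958_g_at. The median difference over the 5 measured genes other than Aco1 was -0.03 (-0.0021 when Aco1, which lies at background, is counted), against -0.02 over all 5002 genes tested.

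The bright members lie where the arrays of a genotype themselves differ. In the top decile of brightness the step from replicate 1 to replicate 2 had a median of 0.21 in KO and 0.07 in WT. The same steps were 0.19 and 0.10 at Fth1 94794_at, 0.20 and 0.12 at the shared ferritin light chain probe set, and 0.17 and -0.02 at Slc11a1. Leaving out KO replicate 1 turned the sign at the ferritin light chain probe set to 0.07 and at Slc11a1 to 0.02, and leaving out KO replicate 2 gave -0.13 and -0.14. At Tfrc 103957_at the KO step was 0.31, larger than the median KO step of 0.08 in decile 5 of brightness, where it lies, and at 103958_g_at it was 0.03 with a WT step of -0.26. Fth1 161913_r_at stepped the other way from probe sets of its brightness, by -0.18 in KO and -0.21 in WT. The part of this shift in the differences was not tested.

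**Figure D3:**
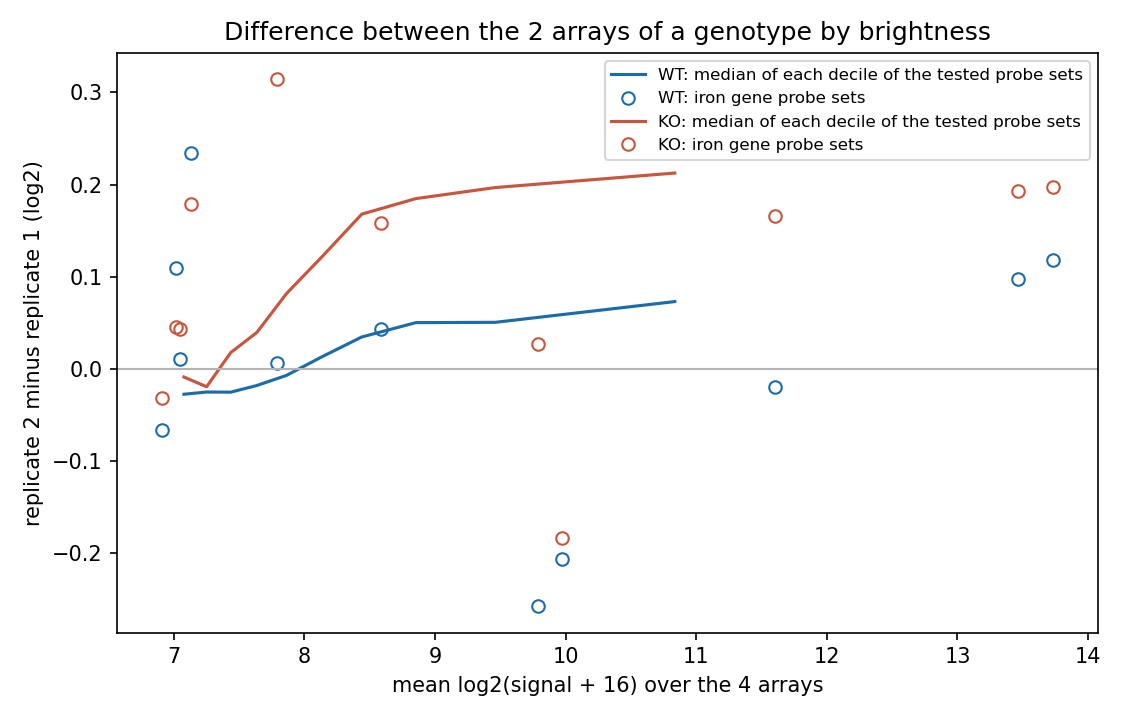
Replicate 2 minus replicate 1 (log2) against the mean log2(signal + 16), with lines for the median of each decile of the tested probe sets and open circles for the iron gene probe sets, WT in blue and KO in red. The KO line climbs from about 0 to 0.21 and the WT line to 0.07, and at the right the KO circles of Slc11a1, Fth1 and the ferritin light chain probe set sit at 0.17, 0.19 and 0.20.

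Markers of proliferating and erythroid cells, in which Tfrc is abundant, were set beside it, and so were markers of other cell types. Of 10 proliferation genes 9 were measured and 8 of them had a higher mean log2(signal + 16) in KO. Of the 9, 2 were below the antisense median on all arrays: Top2a, 1 of the 8, and Mki67, which was not higher. The summed signal of the 9 (1 probe set per gene) ran from 1988.1 to 2135.1 in WT and from 2298.8 to 2354.5 in KO. Of the 7 tested, 1 passed, Mcm3, a subunit of the replication helicase, which rose from 223.3 and 217.8 to 324.4 and 327.2 (limma, adjusted p = 0.00066; 0.285 on leaving out WT replicate 1, 0.468 on leaving out WT replicate 2 and 0.770 without moderation). Of 10 erythroid genes 5 were measured and 0 of the 3 tested passed (0 also at an unadjusted p of 0.05), with sums from 614.1 to 626.4 in WT and from 589.5 to 645.8 in KO. Hba-a1, a haemoglobin chain, read 153.6 and 154.3 in WT and 153.4 and 153 in KO. Fibroblast and mesothelial markers summed to between 1725 and 1730.4 in WT and between 2231.5 and 2605.9 in KO (7 of 8 measured). All 7 were higher in KO, and 1 of them, Msln, was below the antisense median on all arrays with overlapping genotypes. Among 5 tested, Dcn and Sparc passed the threshold, which 3.72% of all tested genes passed, 1.06% as higher in KO. Most of the rise in the sum came from Dcn (616.3 and 560.9 in WT, 945.2 and 1059.7 in KO). Both WT signals of Sparc (96.6 and 98.5) were below the antisense median, so its difference rests in part on a bound. The Dcn call was lost on leaving out WT replicate 1 (limma adjusted p = 0.290) or WT replicate 2 (0.753), and both calls without moderation (0.780 for Dcn and 0.841 for Sparc). B cell markers summed to between 465.9 and 484.5 in WT and 489.6 and 522.7 in KO (4 of 5 measured), and T and NK cell markers to between 331.2 and 354.6 and between 333.2 and 371.2 (4 of 6 measured). No marker was at 0 on any array. In bulk RNA, more cells of a type and more RNA per cell cannot be told apart, and the part of proliferating or stromal cells in the Tfrc and Hfe differences was not tested.

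The wider iron pathway was read from a list of 63 other genes for iron and haem transport, hepcidin signalling and their regulation, of which 42 were measured and 27 passed the filter. Of the 27, 0 rose, 1 fell and 26 did not pass, against 3.72% of all tested genes past the threshold (1.06% higher, 2.66% lower). Their median difference was -0.03. Hp, which encodes haptoglobin, the plasma protein that binds free haemoglobin, fell from 1842.6 and 1960.9 in WT to 1155 and 1483.2 in KO, a fold of 1.45 (log2 difference -0.53, SE 0.16, limma adjusted p = 0.0258, lower on both KO arrays). Over 15 alternatives its adjusted p ran from 1.09e-05 to 0.9999; the call was lost on leaving out WT replicate 1 (0.9997), WT replicate 2 (0.9999) or KO replicate 1 (0.145), with median centring (0.0957) and without moderation (0.865). Hp is also made by neutrophils and fat cells. Neutrophil markers, of which 9 of 9 were measured and 4 were below the antisense median on all arrays, summed to between 1375.8 and 1439.9 in WT and between 1183.9 and 1207.9 in KO. Among the 4 tested, S100a8 fell from 516.9 and 542.2 to 330.8 and 370.2 (limma, adjusted p = 0.00154; 0.413 on leaving out WT replicate 1, 0.750 on leaving out WT replicate 2 and 0.780 without moderation). Most of the fall in the neutrophil sum came from S100a8. The other 3 tested did not pass, with log2 differences of -0.13 (Elane), -0.06 (Camp) and -0.02 (Lcn2, brighter probe set). Of the 9 measured, 2 had a positive log2 difference (Ngp and Cxcr2) and the rest a negative one. The part of neutrophils in the Hp fall was not tested.

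Other steps of haem and iron handling did not pass. Hmox1, the haem oxygenase that frees iron from haem, read 2323.8 and 2579 in WT and 1867.8 and 2337.2 in KO (log2 difference -0.23, SE 0.16, limma adjusted p = 0.876), and passed without KO replicate 2 (-0.39, adjusted p = 0.0483), while without KO replicate 1 the difference was -0.066 (adjusted p = 0.895); over 15 alternatives the adjusted p reached 0.9999. Blvra, the biliverdin reductase of the next step, had a difference of 0.26 (SE 0.12, limma adjusted p = 0.439) and passed without KO replicate 1 (0.44, adjusted p = 0.0152), the 1 of 15 alternatives in which it did, while without KO replicate 2 the difference was 0.081 (adjusted p = 0.851). Ncoa4, the receptor that delivers ferritin to lysosomes, read 985.8 and 784.3 in WT and 736.9 and 767.4 in KO (-0.22, SE 0.15). Leaving out WT replicate 1 brought that difference to -0.059, and leaving out WT replicate 2 to -0.38. Cp, the ferroxidase ceruloplasmin, read 129.7 and 137.1 in WT and 102.4 and 114.1 in KO (-0.27, SE 0.11, limma adjusted p = 0.26). Its KO replicate 1 signal was below the antisense median of that array, so this difference rests in part on a bound. The second metal transporter of the family, Slc11a2 (DMT1), which moves iron out of endosomes, read 771.9 and 776.7 in WT and 722.9 and 790.2 in KO, a difference of -0.03 (SE 0.15). The peptide hormone gene Hamp (hepcidin) lay below the antisense median on all 4 arrays. Lcn2, the siderophore-binding lipocalin, had 2 probe sets that disagreed: the brighter read 124.4 and 127.3 in WT and 138 and 110.8 in KO, while the other, under the filter, read 123.3 and 116.5 in WT and 72.1 and 76.8 in KO (adjusted p = 1.39e-05 in the limma fit without a filter).

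Of 37 genes of haem synthesis and iron-sulfur cluster assembly, 25 were measured and 22 passed the filter. Of the 22, 0 rose, 1 fell and 21 did not pass, against 3.72% of all tested genes past the threshold (1.06% higher, 2.66% lower). Their median difference was -0.03. Tspo, a mitochondrial outer membrane protein that binds porphyrins and cholesterol, fell from 5642 and 6390.3 in WT to 3812.5 and 4467.6 in KO, a fold of 1.45 (log2 difference -0.54, SE 0.15, limma adjusted p = 0.00967, lower on both KO arrays). It is no enzyme of the haem pathway. Over 15 alternatives its adjusted p ran from 1.76e-08 to 0.9999, and the call was lost on leaving out WT replicate 1 (0.9997) or WT replicate 2 (0.9999), without a filter (0.0511) and without moderation (0.837). Alad, the enzyme of the second step of haem synthesis, read 296.2 and 307.3 in WT and 341.1 and 377.7 in KO (0.24, SE 0.13, limma adjusted p = 0.605). Alas1, the first and rate-limiting enzyme, read 2894.9 and 3019.4 in WT and 2539.2 and 2847.7 in KO, a difference of -0.14 that did not pass.

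Transcripts outside the members that carry an iron-responsive element, or one like it, were the last list. Of 7, 4 were measured and 3 (Slc11a2, Alas2 and App) passed the filter, and by limma 0 of the 3 passed, 0 also at an unadjusted p of 0.05. Their differences were -0.03, -0.08 and -0.11. The one under the filter, Epas1, a hypoxia-inducible factor subunit, read 64.8 and 69.4 in WT and 86.9 and 105.5 in KO, below the antisense median on every array, and passed in the limma fit without a filter (0.43, SE 0.11, adjusted p = 0.00485).

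**Figure D4:**
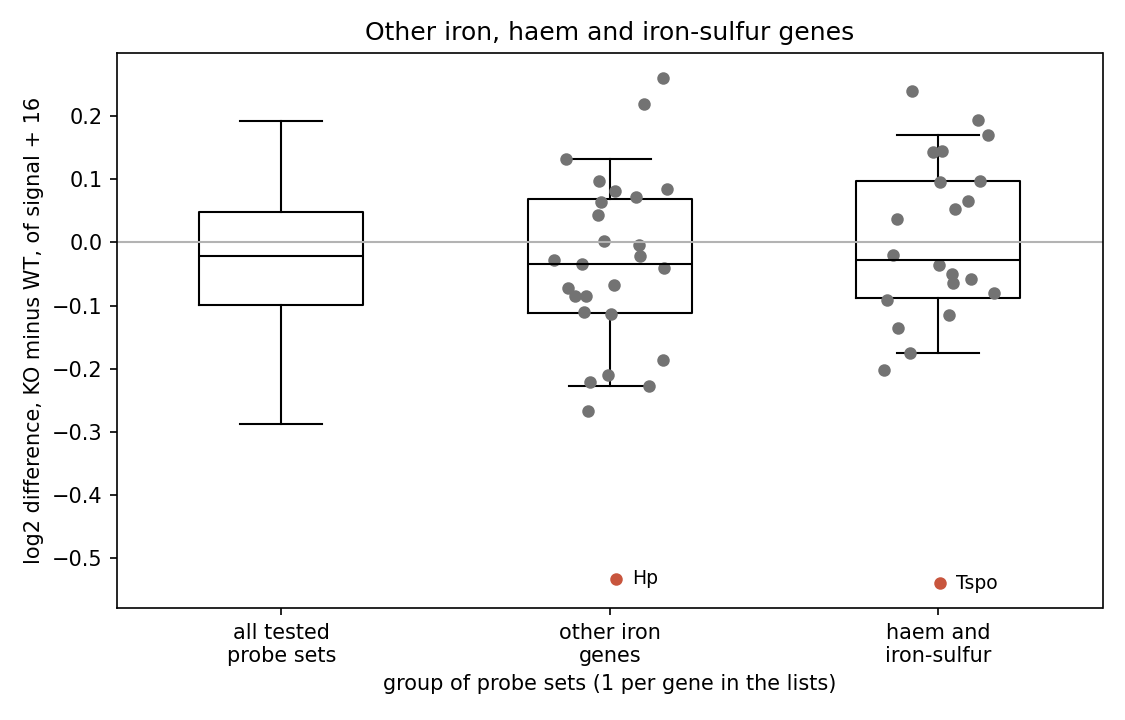
Log2 difference, KO minus WT, of signal + 16 for all 6389 tested probe sets and for the tested genes of the 2 longer lists (1 probe set per gene; boxes show quartiles and median, whiskers the 5th and 95th percentiles). Hp and Tspo, in red, are the genes past an adjusted p of 0.05 and lie at -0.53 and -0.54, below the other points. The median lies at -0.02 for all tested probe sets and at -0.03 for each list.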

How the data were processed

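Each genotype had 2 one-colour Affymetrix arrays, mapped by their titles. The deposited table holds linear intensities, to judge by their range, 1 for each probe set on each array; the authors' probe summary, background correction and scaling are not given in the sources here. Of 12488 rows, 1780 were blank and 59 were controls, leaving 10649 probe sets, of which 9389 had 1 gene in the platform annotation, 341 several and 919 none. Array medians of log2(intensity + 16) differed by less than 0.1, so values were used as deposited. Probe sets above the 40th percentile of the mean were fitted with limma 3.58.1 in R 4.3.3 (lmFit, eBayes with trend, two-sided, Benjamini-Hochberg over all 6389). The 3 Tfrc controls were added to a second fit, a choice made after seeing the data, to give their SE. Each gene took the value of the brightest of its kept probe sets; members below the filter came from the fit without it. The moderation put all its weight on the trend (infinite prior degrees of freedom), so small p-values and all intervals rest on the pooled spread, and the 4 arrays limit precision. The code was tested on simulated data.

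Members, lists and alternatives were chosen with earlier results of these data known. Named were all members, Pparg, of each list the genes past the threshold and otherwise up to 5 with the smallest p; other genes are examples picked after their values were seen. Sequences came from RefSeq windows of GRCm38.p6; the arrays name no build. Figures used matplotlib 3.10.9 in Python 3.11.15.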

Additional observations from a re-analysis of the deposited data

How the results depend on the processing

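Of 6389 tested probe sets 227 passed; quantile normalization gave 419, the replicate block 480 and the fit without moderation 0 (limma; 388 at an unadjusted p of 0.05, against 605 with moderation), and leaving out 1 array gave 54 (without WT replicate 2) to 327 (without KO replicate 2), with 72 without WT replicate 1. The direction of the calls moved too: 65 of 227 were higher as deposited, 170 of 419 after quantile normalization, 127 of 251 without KO replicate 1, 42 of 327 without KO replicate 2, 18 of 72 without WT replicate 1 and 6 of 54 without WT replicate 2. The median difference of the 6 measured members, Aco1 included, was -0.0021, 0.057 after quantile normalization and -0.04 to 0.04 when an array was left out. The 1 called gene among other iron genes became 2 after quantile normalization, 2 without a filter, 0 with median centring (3 at an unadjusted p of 0.05), 0 without moderation (1 at that p), and 0 to 2 with an array left out. The 1 among haem and iron-sulfur genes became 0 without a filter and 0 without moderation (1 and 0 at that p), and 0 to 1 with an array left out; the 0 among transcripts with an iron-responsive element became 1 without a filter. The causes were not tested. Replicate numbers are shared by the genotypes, and differences of replicate 2 from replicate 1 correlated at 0.42 between them over probe sets, but 2 pairs do not establish a pairing; with the replicate block the median of the members stayed at -0.0021 and the list counts at 1, 1 and 0. Signals near the antisense controls limit Aco1, Hfe, Pparg and the 5′ and middle controls of Tfrc.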
